A study of Mus musculus with 4 samples.

Results

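The genes described here encode 9 proteins that hepatocytes or other liver cells secrete into blood or the space between cells: the stress hormones FGF21 and GDF15, the angiopoietin-like proteins ANGPTL4 and ANGPTL6, the activin subunits Inhbe and Inhba, the activin antagonist follistatin (Fst), and the fetuins Fetub and Ahsg. They were chosen by name, as the 9 rows of the deposited count table that carry these symbols, out of 22155 rows. All 9 were present and all 9 passed the filter on low counts, so none was left out. The samples were whole livers of wild-type C57BL/6 mice of 8 to 10 weeks. In the ethanol plus gavage group, 10 days on an ethanol-containing liquid diet (5% ethanol, the Lieber-DeCarli formula) ended with 1 dose of ethanol at 5 g per kg into the stomach, and the liver was taken 9 h later. The ethanol alone group had the same diet without the binge, as its title and treatment label say. The sex of the mice was not stated. Both groups therefore carry chronic ethanol, and no ethanol-free group or sham gavage was analysed here. Each group held 2 libraries, of 29914491 and 30039731 counts with gavage and 28791281 and 30347558 counts with ethanol alone. Nothing in the labels says that each library was made from its own mouse, and the p-values below therefore reflect the variation among these 4 libraries, which may be technical. Whole liver RNA mixes all its cells, and a difference in the number of cells of a type cannot be told apart from a difference in RNA per cell.

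Secreted liver factors, often called hepatokines, let the liver act on other organs. FGF21 signals through FGF receptors that pair with the coreceptor beta-klotho, is induced by fasting through the nuclear receptor PPARA and by amino acid or endoplasmic reticulum stress through the transcription factor ATF4, and in mice lowers the preference for alcohol. GDF15 is a stress-induced member of the TGF-beta superfamily that acts on the brainstem receptor GFRAL and reduces food intake. ANGPTL4 inhibits lipoprotein lipase and is a target of PPARs and of the glucocorticoid receptor, while ANGPTL6 has been linked to energy expenditure. Activins are dimers of inhibin beta subunits. Activins A and B signal through SMAD2 and SMAD3, and follistatin binds and neutralises these forms. The fetuins are cystatin-type plasma glycoproteins: fetuin-A, the product of Ahsg, holds calcium phosphate in solution, and fetuin-B, the product of Fetub, inhibits the protease ovastacin.

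The libraries differed in the markers of other tissues. Hepatocyte markers dominated each one, with a summed level of 99090 and 123000 CPM with gavage and 138300 and 121900 CPM with ethanol alone. CPM are counts relative to library size, with sizes scaled by the trimmed mean of M-values. Of 7 exocrine pancreas markers, 7 were highest in replicate 1 of ethanol alone, where they summed to 1055 CPM, against 4.52 and 5.55 CPM in the gavage libraries and 8.42 CPM in replicate 2 of ethanol alone. The 6 skeletal muscle markers summed to 729 and 1.10 CPM with gavage and 321 and 9.81 CPM with ethanol alone, and the 8 adipocyte markers to 115 and 46.1 CPM with gavage and 65.9 and 8.52 CPM with ethanol alone. Each of the 6 muscle markers was higher in replicate 1 than in replicate 2 of both groups. The same held for 8 of 8 adipocyte markers with ethanol alone and for 7 of 8 with gavage. The exception was Cidec, a lipid droplet protein that fatty hepatocytes can also express, at 15.7 and 33.9 CPM with gavage and 3.66 and 0.529 CPM with ethanol alone. The adipocyte hormone Adipoq had 280 and 2 counts with gavage and 151 and 0 counts with ethanol alone. The 7 Kupffer cell and macrophage markers summed to 316 and 357 CPM with gavage and 530 and 550 CPM with ethanol alone, and 7 of 7 lay lower with gavage without overlap of the groups. Over all tested genes, 27.2% lay lower without overlap. Of the other cell types listed, stellate cell and fibroblast markers summed to 700.2 and 661 CPM with gavage and 713 and 614 CPM with ethanol alone, endothelial markers to 397 and 430.3 CPM with gavage and 408 and 437 CPM with ethanol alone, and cholangiocyte markers to 72.9 and 57.4 CPM with gavage and 80.6 and 65.5 CPM with ethanol alone. Neutrophil markers summed to 13.5 and 3.22 CPM with gavage and 2.31 and 2.05 CPM with ethanol alone. No marker of these 9 lists was at 0 in all 4 libraries.

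Across the 9 genes, follistatin, both activin subunits and fetuin-A were higher in each gavage library than in each ethanol alone library, while the groups overlapped for FGF21, GDF15, both angiopoietin-like genes and fetuin-B. By edgeR's quasi-likelihood test, adjusted over 13309 genes by the Benjamini-Hochberg method, 0 of the 9 were called at an adjusted p under 0.05, as were 0 genes in the whole table (0%). At an unadjusted p under 0.05, 3 of 9 were higher (8.91% of all tested genes) and 0 of 9 were lower (9.85%). The 4 genes without overlap and higher compare with 27.5% of all genes, and 0 of 9 without overlap and lower with 27.2%. DESeq2 called 3 of the 9, all higher, where it called 3.94% of all genes higher and 4.9% lower. edgeR's likelihood-ratio test called 1, also higher, where 2.14% of all genes were called higher and 1.98% lower. The median log2 fold change of the 9, gavage over ethanol alone, was 0.62, beside 0.02 over all tested genes. That median was -0.29 without replicate 2 of the gavage group. In that fit Fst, Inhbe, Inhba and Ahsg stayed positive, at 1.70, 0.66, 0.84 and 0.66. Fgf21 turned to -0.32, and the remaining genes were negative with or without that library. The median was 0.61 without replicate 1 of the same group, and for ethanol alone 0.76 without replicate 1 and 0.34 without replicate 2.

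**Figure D1:**
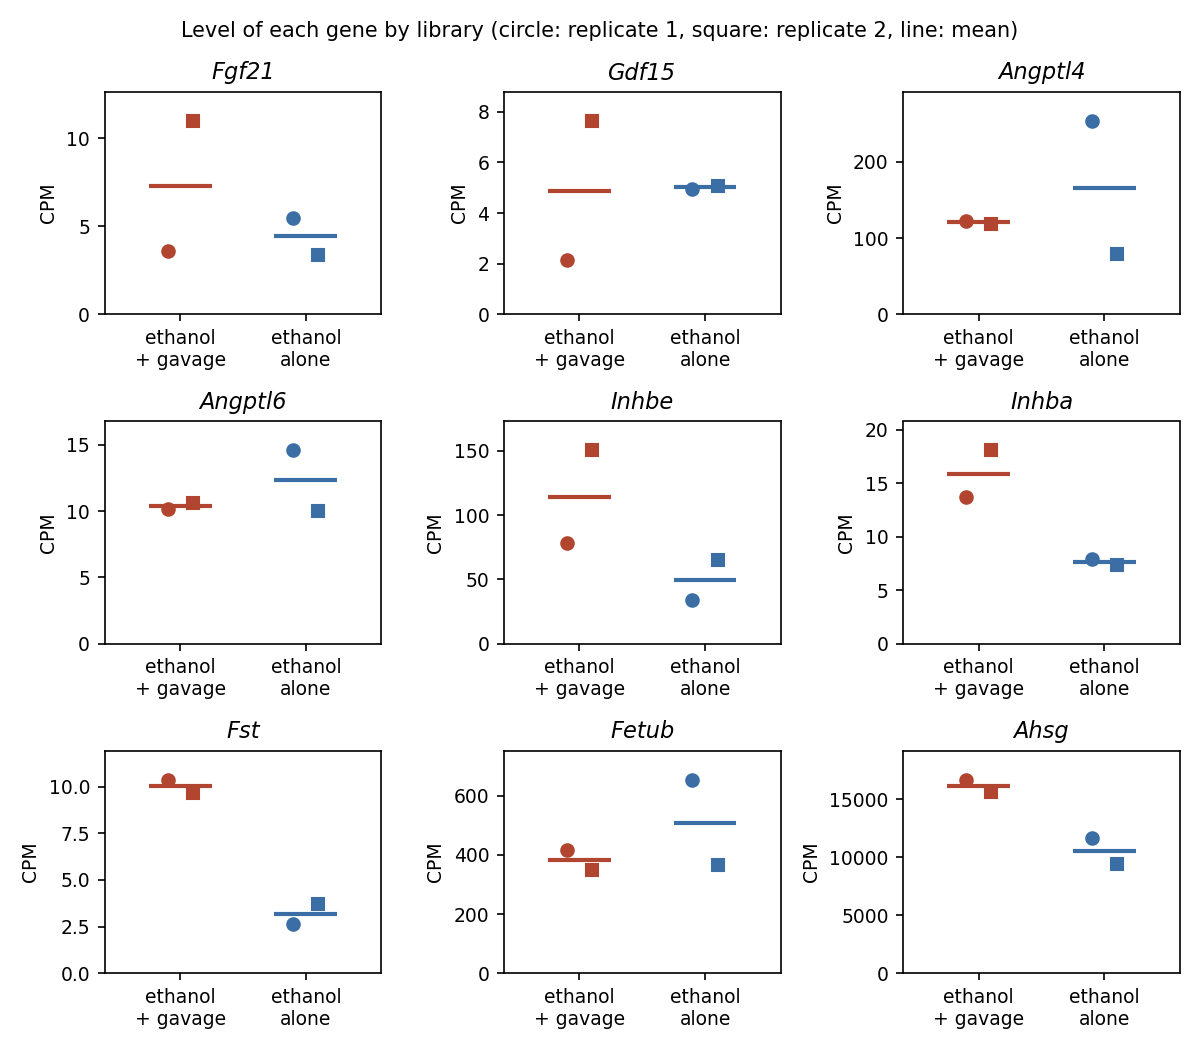
Level of each of the 9 genes in CPM (y axis, from 0) in the ethanol plus gavage libraries (left, red) and the ethanol alone libraries (right, blue); circles are replicate 1, squares replicate 2 and lines group means. The groups are separate for Inhbe, Inhba, Fst and Ahsg and overlap for the other 5 genes.

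**Figure D2:**
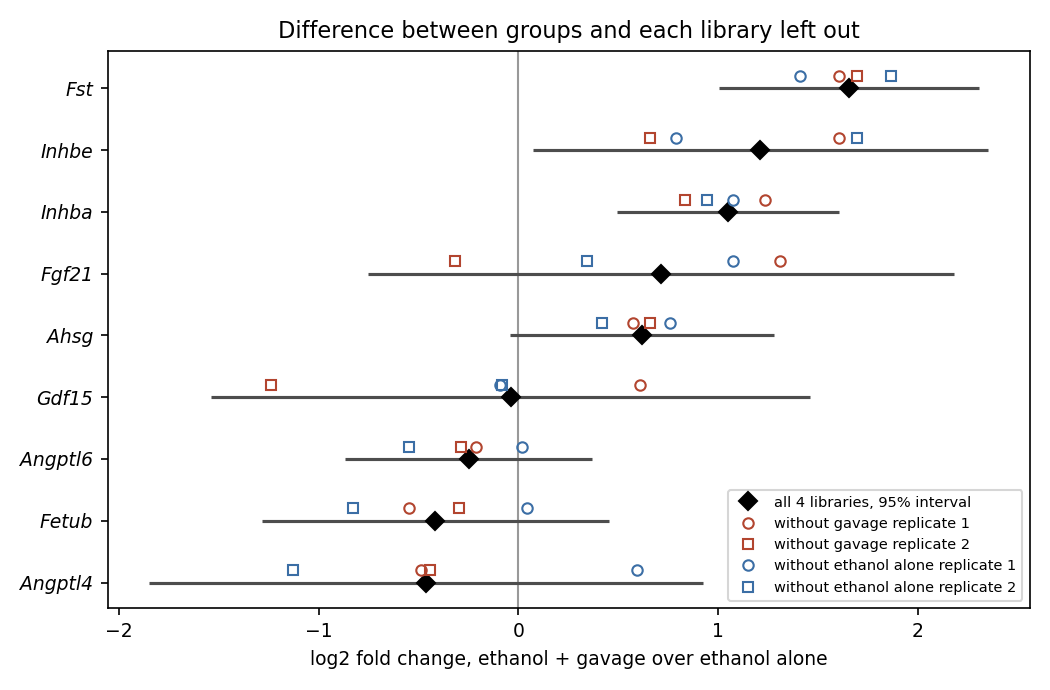
Log2 fold change of gavage over ethanol alone (x axis) for each gene, with all 4 libraries (black diamond, line for the 95% interval) and with each library left out (open symbols). Leaving out 1 library turned the sign for Fgf21, Gdf15, Angptl4, Angptl6 and Fetub and for none of Fst, Inhbe, Inhba and Ahsg.

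Follistatin had the largest difference of the 9 (Fst, ENSMUSG00000021765.9, chromosome 13, 114452290 to 114458951, minus strand, GRCm38). Its counts were 325 and 291 with gavage and 72 and 112 with ethanol alone. On the CPM scale the level was 10.3 and 9.67 with gavage, against 2.64 and 3.70 with ethanol alone. Both gavage libraries lay well above both ethanol alone libraries, and the 2 libraries of a group were 1.07-fold apart with gavage and 1.40-fold apart with ethanol alone. The mean was 10.0 ± 0.48 CPM with gavage and 3.17 ± 0.75 CPM with ethanol alone (SD, n = 2 each), a ratio of 3.16. The log2 fold change was 1.66 (SE 0.26, 95% interval 1.01 to 2.31), and the adjusted p was 0.128 in edgeR's quasi-likelihood test, 1.59e-04 in DESeq2 and 0.00337 in the likelihood-ratio test. It ran from 1.41 to 1.87 with any 1 library left out. An antisense gene shares 2.51% of the exonic bases of Fst, and whether the counting used strand is not given in the sources used here.

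Inhba encodes the beta-A subunit of activin A (ENSMUSG00000041324.14, chromosome 13, 16011851 to 16031621, plus strand). It was counted 432 and 544 times with gavage and 217 and 224 times with ethanol alone, which is 13.8 and 18.1 CPM against 7.94 and 7.4 CPM. Each gavage library was above each ethanol alone library. The means were 15.9 ± 3.05 CPM with gavage and 7.67 ± 0.38 CPM with ethanol alone (SD, n = 2 each), a ratio of 2.07 and a log2 fold change of 1.05 (SE 0.22, 95% interval 0.50 to 1.61). The adjusted p was 0.145 by edgeR's quasi-likelihood test and 0.00897 by DESeq2. Macrophages can also express Inhba, and the Kupffer cell and macrophage markers lay lower with gavage, at 316 and 357 CPM, against 530 and 550 CPM with ethanol alone. Their part in the result was not tested. Both the ligand subunit and its antagonist thus lay higher in the gavage libraries. The ratio of Inhba to Fst counts within a library, which no scaling between libraries can move, was 1.33 and 1.87 with gavage and 3.01 and 2.0 with ethanol alone. This ratio was chosen after the values were seen, and its lowest ethanol alone value was close to its highest gavage value.

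Inhbe encodes the beta-E subunit, made mainly by hepatocytes (ENSMUSG00000047492.5, chromosome 10, 127348857 to 127354411, minus strand). Its counts were 2455 and 4521 with gavage and 923 and 1959 with ethanol alone. The level was 78.2 and 150.2 CPM with gavage, against 33.8 and 64.7 CPM with ethanol alone. The groups did not overlap, yet the libraries of a group were 1.92-fold apart with gavage and 1.92-fold apart with ethanol alone. The means were 114 ± 50.9 CPM with gavage and 49.3 ± 21.9 CPM with ethanol alone (SD, n = 2 each). The log2 fold change of 1.21 (SE 0.45, 95% interval 0.07 to 2.35) had an adjusted p of 0.25 in edgeR's quasi-likelihood test and 0.0528 in DESeq2, and ran from 0.66 to 1.70 with any 1 library left out.

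The other subunit genes came from a list of 3 and did not move as 1 group. Inhbc, the beta-C subunit and a neighbour of Inhbe on chromosome 10, is also a hepatocyte gene. It stood at 58.6 and 53.6 CPM with gavage, against 88.6 and 67.8 CPM with ethanol alone (log2 fold change -0.48, edgeR adjusted p = 0.293). The ratio of Inhbe to Inhbc counts, chosen after the values were seen, was 1.33 and 2.80 with gavage and 0.381 and 0.954 with ethanol alone, without overlap. Inhbb, the beta-B subunit of activin B, stood at 23.9 and 13.3 CPM with gavage, against 6.37 and 5.85 CPM with ethanol alone. Its log2 fold change was 1.61 (SE 0.33, edgeR adjusted p = 0.142). Of this list, DESeq2 and the likelihood-ratio test called 1 gene each, Inhbb, higher, while the quasi-likelihood test called 0. Inha, the alpha subunit that turns activins into inhibins, had 13 and 4 counts with gavage and 5 and 2 with ethanol alone and was not tested.

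On the receiving side, 11 of 11 listed activin receptors, SMADs and antagonists were tested. Of these, 10 had a positive and 1 a negative fold change, with a median of 0.31, or 0.22 to 0.30 with 1 library left out. Over all tested genes, 51.7% had a positive fold change. At an unadjusted p under 0.05 there were 1 higher and 1 lower. edgeR's quasi-likelihood test and its likelihood-ratio test called 0, and DESeq2 called 1 higher and 1 lower. The gene with the smallest p was Tgfbr3, encoding betaglycan, the inhibin coreceptor, at 35.7 and 27.7 CPM with gavage and 16.1 and 18.2 CPM with ethanol alone (log2 fold change 0.88, edgeR adjusted p = 0.151). Smad4, the common partner of receptor-activated SMADs and the most abundant, was at 49.2 and 54.1 CPM with gavage and 39.1 and 43.7 CPM with ethanol alone. Smad7, the inhibitory SMAD and the 1 lower gene, was picked out after its values were seen. It stood at 13.3 and 12.4 CPM with gavage, against 19.8 and 24.4 CPM with ethanol alone (log2 fold change -0.79, edgeR adjusted p = 0.163). The second follistatin-type antagonist, Fstl3, also picked out afterwards, had 32 and 11 counts with gavage and 8 and 10 with ethanol alone, too few for a close estimate.

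FGF21 did not separate the groups (Fgf21, ENSMUSG00000030827.5, chromosome 7, 45613886 to 45615490, minus strand). It had 112 and 331 counts with gavage and 150 and 102 with ethanol alone. The level was 3.57 and 10.99 CPM with gavage, against 5.49 and 3.37 CPM with ethanol alone. Replicate 2 of the gavage group was the highest of the 4, and replicate 1 of that group lay between the ethanol alone libraries. The means were 7.28 ± 5.25 CPM with gavage and 4.43 ± 1.5 CPM with ethanol alone (SD, n = 2 each). The log2 fold change was 0.72 with a 95% interval of -0.75 to 2.18, and the edgeR adjusted p was 0.538. It was 1.31 without replicate 1 of the gavage group and -0.32 without replicate 2. In mice the exocrine pancreas and fat also express Fgf21. The library with the pancreas markers, replicate 1 of ethanol alone, had the higher Fgf21 level of its group, and without it the log2 fold change was 1.08. The part of pancreas or fat RNA in these values was not tested.

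GDF15 differed most between the gavage libraries (Gdf15, ENSMUSG00000038508.7, chromosome 8, 70629393 to 70632456, minus strand). Its counts were 67 and 230 with gavage and 135 and 154 with ethanol alone, or 2.13 and 7.64 CPM against 4.94 and 5.09 CPM. The gavage libraries were the lowest and the highest of the 4 and 3.58-fold apart, while the ethanol alone libraries were 1.03-fold apart. The low library departed more: replicate 1 was 2.32-fold below the next lowest, and replicate 2 was 1.5-fold above the next highest. The mean was 4.89 ± 3.89 CPM with gavage and 5.01 ± 0.10 CPM with ethanol alone (SD, n = 2 each). With a log2 fold change of -0.04 and a 95% interval of -1.54 to 1.46 (edgeR adjusted p = 0.98), a difference of more than 2-fold either way lies within the interval. Left-out libraries gave -1.24 without replicate 2 of the gavage group and 0.61 without replicate 1. The receptor gene Gfral, a hindbrain gene, had 0 counts in all 4 libraries, which allows up to 3 counts or 0.0955 to 0.110 CPM per library by counting error alone. Its signalling partner Ret had 12 and 0 counts with gavage and 3 and 0 with ethanol alone.

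Fgf21, Gdf15, Inhbe and Inhba were each highest in replicate 2 of the gavage group. In that library Fgf21 stood 2.0-fold, Inhbe 1.92-fold, Gdf15 1.5-fold and Inhba 1.31-fold above the next highest library. Fst and Ahsg were highest in replicate 1 of the gavage group, and Angptl4, Angptl6 and Fetub in replicate 1 of ethanol alone. The share of all tested genes that were highest in replicate 2 of the gavage group was not counted. Among all candidates, 11705 tested genes of at least 1 CPM, the profile over the 4 libraries nearest to Fgf21 was that of Ddit3, encoding the transcription factor CHOP. The measure was the Euclidean distance between log2 profiles centred on their means, 0.31 for Ddit3 and 0.419 for Rab30, which came next. Ddit3 stood at 8.15 and 28.03 CPM with gavage and 11.8 and 9.78 CPM with ethanol alone. Nearest to Gdf15 were Cyp26a1, a retinoic acid hydroxylase, at a distance of 0.235 and Pctp, a phosphatidylcholine transfer protein, at 0.285. For Inhbe the nearest were Tubb6, a beta-tubulin, at 0.132 and Golim4, a Golgi membrane protein, at 0.236. Over 4 libraries many genes can share such a pattern, so these distances are descriptions.

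Of 13 listed ATF4 and CHOP stress genes, 12 were tested, 8 with a positive and 4 with a negative fold change (median 0.29). At an unadjusted p under 0.05 there were 2 higher and 0 lower. Calls numbered 0 in the quasi-likelihood test, and DESeq2 and the likelihood-ratio test called 1 each, higher. Atf5, a stress-induced factor and the most abundant, was at 726 and 1003 CPM with gavage and 632 and 601 CPM with ethanol alone. Asns, the asparagine synthetase, had the smallest p, with 12.8 and 8.67 CPM with gavage, against 2.34 and 0.429 CPM with ethanol alone (log2 fold change 2.96, SE 0.76, edgeR adjusted p = 0.179). Picked out after their values were seen, Trib3, a pseudokinase, was at 8.85 and 83.4 CPM with gavage and 13.9 and 8.52 CPM with ethanol alone, and Atf3, an acute stress factor, at 2.87 and 37.9 CPM with gavage and 1.21 and 2.97 CPM with ethanol alone. In replicate 2 of the gavage group, Trib3 was 6.01-fold and Atf3 12.8-fold above the next highest library. Of the same list, Ddit3, Atf4, Atf5 and Sesn2 were also highest there. The others were not: Asns and the untested Slc7a11 were highest in replicate 1 of the gavage group, and Vldlr in replicate 2 of ethanol alone. Chac1, Nupr1, Ppp1r15a and Cebpb were highest in replicate 1 of ethanol alone. Atf4 itself, which is controlled mainly at translation, was at 92.1 and 109.6 CPM with gavage and 102 and 102 CPM with ethanol alone. Without that library the median of the stress list was -0.14, against 0.61 without replicate 1 of the gavage group and 0.68 without replicate 1 of ethanol alone.

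**Figure D3:**
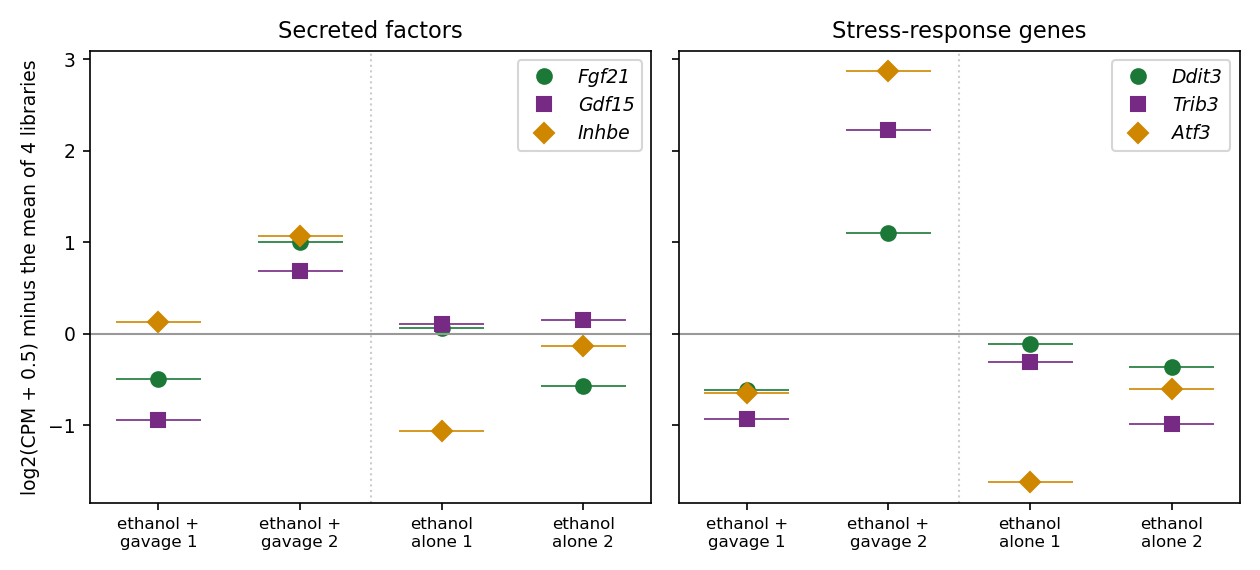
Log2(CPM + 0.5) minus the mean of the 4 libraries (y axis) in each library (x axis, gavage left of the dotted line) for Fgf21, Gdf15 and Inhbe (left) and for Ddit3, Trib3 and Atf3 (right). Replicate 2 of the gavage group is the highest library for all 6 genes, and replicate 1 of that group is near or below the ethanol alone libraries for all but Inhbe. The shared peak follows from how the genes were chosen. Fgf21, Gdf15 and Inhbe are shown because they peak there, and Ddit3 as the profile nearest to Fgf21. Trib3 and Atf3 were picked after their values were seen.

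Upstream sequences of genes that were highest in replicate 2 of the gavage group are shown for their match to the core of the composite C/EBP-ATF element. This core, TGATGNAA, was searched on both strands. RefSeq promoters (GRCm38.p6) were on hand for 7 of the 9 genes, and the 250 bases before the start were searched. The match is in capitals. In Fgf21 (chr7:45615491-45615740, minus strand) it lies on the strand opposite to the gene at positions -139 to -132 from the start.

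Fgf21: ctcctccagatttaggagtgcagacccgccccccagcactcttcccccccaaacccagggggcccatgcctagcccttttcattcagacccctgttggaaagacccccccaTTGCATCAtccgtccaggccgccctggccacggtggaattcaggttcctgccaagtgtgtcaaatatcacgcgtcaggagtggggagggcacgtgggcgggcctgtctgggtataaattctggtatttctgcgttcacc

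Inhbe holds the same 8 letters at positions -181 to -174 of its RefSeq start, again on the opposite strand. A 30-base stretch is given for each, since the longer GENCODE transcript of Inhbe runs over this window.

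Fgf21 stretch: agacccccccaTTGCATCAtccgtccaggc

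Inhbe stretch: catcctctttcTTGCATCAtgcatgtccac

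These were 2 of the 7 genes searched, which had 9 windows between them. Of all 32851 RefSeq promoter windows of this length, 3.45% hold the motif. The first share counts genes and the second windows, and enrichment was not tested. Inhba, also highest in replicate 2 of the gavage group, had no match to it, nor had Gdf15 in either of its windows. The upstream window of its first start (chr8:70632457-70632706, minus strand) is shown with its 1 copy of AGGTCA, a core sequence of nuclear receptor sites that 14.0% of all windows hold, in capitals at positions -55 to -50.

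Gdf15: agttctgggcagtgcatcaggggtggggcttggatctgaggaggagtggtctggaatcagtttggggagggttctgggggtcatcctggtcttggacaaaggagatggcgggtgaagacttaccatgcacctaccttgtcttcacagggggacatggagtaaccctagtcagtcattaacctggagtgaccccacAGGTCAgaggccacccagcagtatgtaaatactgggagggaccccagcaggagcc

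The cyclic AMP response element core TGACG, in 17.8% of all windows, was found in Fgf21 at positions -68 to -64 and in 1 of the 2 Fetub windows, each on the strand opposite to the gene. A match describes letters in this window and says nothing on binding.

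A list of FGF receptors, their coreceptors and other FGFs was described in the same way. Of its 9 genes, 6 were tested, 2 with a positive and 4 with a negative fold change (median -0.15, or -0.31 to 0 with 1 library left out). The unadjusted p was under 0.05 for 1, and the quasi-likelihood test, the likelihood-ratio test and DESeq2 called 0. Klb, the beta-klotho coreceptor, was at 28.9 and 43.2 CPM with gavage and 36.0 and 51.3 CPM with ethanol alone. Fgfr4, the main hepatocyte FGF receptor, was at 48.2 and 42.5 CPM with gavage and 52.5 and 50.4 CPM with ethanol alone. Both were named after their values were seen. Fgfr2 had the smallest p of the list, with 23.7 and 34.6 CPM with gavage, against 44.4 and 46.8 CPM with ethanol alone (log2 fold change -0.65, SE 0.23, edgeR adjusted p = 0.24). Fgf1, the most abundant, stood at 97.3 and 158 CPM with gavage and 118 and 160.2 CPM with ethanol alone, with overlap.

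ANGPTL4 (Angptl4, ENSMUSG00000002289.16, chromosome 17, 33773750 to 33781830, minus strand) was close to constant within the gavage group and not within ethanol alone. Counts were 3860 and 3564 with gavage and 6934 and 2374 with ethanol alone. The level was 123 and 118 CPM with gavage, against 254 and 78.4 CPM with ethanol alone, so that the ethanol alone libraries were the highest and the lowest of the 4. The means were 121 ± 3.21 CPM with gavage and 166 ± 124 CPM with ethanol alone (SD, n = 2 each), a log2 fold change of -0.46 (95% interval -1.85 to 0.92, edgeR adjusted p = 0.68). Leaving out replicate 1 of ethanol alone gave 0.60, and leaving out its replicate 2 gave -1.13. Fat expresses Angptl4 strongly. The summed adipocyte markers were higher in replicate 1 of both groups, with Cidec the other way in the gavage group, while Angptl4 was 1.04-fold apart between the gavage libraries and 3.24-fold apart between those of ethanol alone. Their part in the result was not tested.

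ANGPTL6 (Angptl6, ENSMUSG00000038742.7, chromosome 9, 20873808 to 20879727, minus strand) stood at 10.1 and 10.6 CPM with gavage, against 14.6 and 10.0 CPM with ethanol alone. The 2 gavage libraries and replicate 2 of ethanol alone were nearly equal. The log2 fold change was -0.25 (95% interval -0.87 to 0.37, edgeR adjusted p = 0.616) and 0.02 without replicate 1 of ethanol alone. A230050P20Rik on the other strand covers 16.8% of its exonic bases and was counted 3343 and 4725 times with gavage and 1761 and 2132 times with ethanol alone. Without a stated strand setting, reads of the shared part cannot be assigned to either gene.

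Other angiopoietin-like proteins and the lipases they act on were described as lists. Of 5 other angiopoietin-like genes, all tested, 1 had a positive and 4 a negative fold change (median -0.36, or -0.07 without replicate 2 of the gavage group and -0.14 without replicate 1 of ethanol alone). The unadjusted p was under 0.05 for 0, and the quasi-likelihood test, the likelihood-ratio test and DESeq2 called 0. Angptl1 had the smallest p on 26 and 11 counts with gavage and 8 and 6 with ethanol alone. Of 9 lipases and partners, 2 had a positive and 7 a negative fold change (median -0.21). That median was -0.50 without replicate 1 and -0.11 without replicate 2 of the gavage group, and -0.61 without replicate 2 of ethanol alone. The unadjusted p was under 0.05 for 0 with a positive and 3 with a negative sign. The quasi-likelihood test called 0, and DESeq2 and the likelihood-ratio test called 2 each, lower. Lipg, endothelial lipase, had the smallest p, at 7.42 and 11.6 CPM with gavage and 25.3 and 22.0 CPM with ethanol alone (log2 fold change -1.32, SE 0.27, edgeR adjusted p = 0.141). Lipc, hepatic lipase, named after its values were seen, stood at 115 and 139 CPM with gavage and 299 and 236 CPM with ethanol alone. Furin, a protease that cleaves angiopoietin-like proteins and the most abundant of the list, was at 252 and 304 CPM with gavage and 237 and 279 CPM with ethanol alone.

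Fetuin-A was by far the most abundant of the 9 (Ahsg, ENSMUSG00000022868.6, chromosome 16, 22891277 to 22899449, plus strand). It took 523581 and 471826 counts with gavage and 318232 and 283935 with ethanol alone. As a share of all counts this was 1.75% and 1.57% with gavage, against 1.11% and 0.936% with ethanol alone. The level was 16673 and 15672 CPM with gavage, against 11650.3 and 9380.2 CPM with ethanol alone, and the groups did not overlap. The means were 16172 ± 708 CPM with gavage and 10515 ± 1605 CPM with ethanol alone (SD, n = 2 each), a ratio of 1.54. The log2 fold change was 0.62 (SE 0.26, 95% interval -0.04 to 1.28), with an adjusted p of 0.281 in edgeR's quasi-likelihood test and 0.0453 in DESeq2. It lay between 0.42 and 0.76 with any 1 library left out. Counting error is negligible at this depth. The width of the interval reflects the variation between libraries as the fit estimates it, and the small number of libraries. An antisense gene shares 2.82% of the exonic bases of Ahsg, and whether the counting used strand is not given in the sources used here.

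Fetuin-B, from the neighbouring gene (Fetub, ENSMUSG00000022871.13, chromosome 16, 22918334 to 22939778, plus strand), overlapped between the groups. It stood at 416 and 348 CPM with gavage, against 654 and 364 CPM with ethanol alone, and replicate 2 of ethanol alone lay between the gavage libraries. The means were 382 ± 47.5 CPM with gavage and 509 ± 205 CPM with ethanol alone (SD, n = 2 each), and the log2 fold change was -0.41 (95% interval -1.28 to 0.45, edgeR adjusted p = 0.548). Without replicate 1 of ethanol alone it was 0.04. The ratio of Ahsg to Fetub counts, chosen after the values were seen, was 40.1 and 45.0 with gavage and 17.8 and 25.7 with ethanol alone, without overlap. Of 3 related cystatin-type plasma proteins, Hrg, Kng1 and Kng2, 3 had a negative fold change (median -0.20), which was -0.003 without replicate 1 and -0.43 without replicate 2 of the gavage group, and -0.33 without replicate 2 of ethanol alone. The unadjusted p was under 0.05 for 0, and the quasi-likelihood test, the likelihood-ratio test and DESeq2 called 0. Kng1, kininogen and both the most abundant and the one with the smallest p, was at 1707 and 1952 CPM with gavage and 2664 and 1980.5 CPM with ethanol alone.

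Levels can be compared between genes only per length, so CPM were divided by the length of the longest coding transcript in kb. On this scale Ahsg ran from 6321 to 11235 over the 4 libraries and Fetub from 218 to 409, and neither range met that of the next gene. Angptl4 followed at 23.7 to 76.7 and Inhbe at 6.35 to 28.2, and the ranges of these 2 overlapped. Angptl6 at 6.35 to 9.21, Fgf21 at 3.54 to 11.6, Gdf15 at 1.38 to 4.94, Fst at 0.930 to 3.65 and Inhba at 1.16 to 2.83 each overlapped with the gene before it in the order. The value for Inhbe depends on its start: from the RefSeq start, the transcript has 2756 instead of 5319 bases and the level runs from 12.3 to 54.5.

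**Figure D4:**
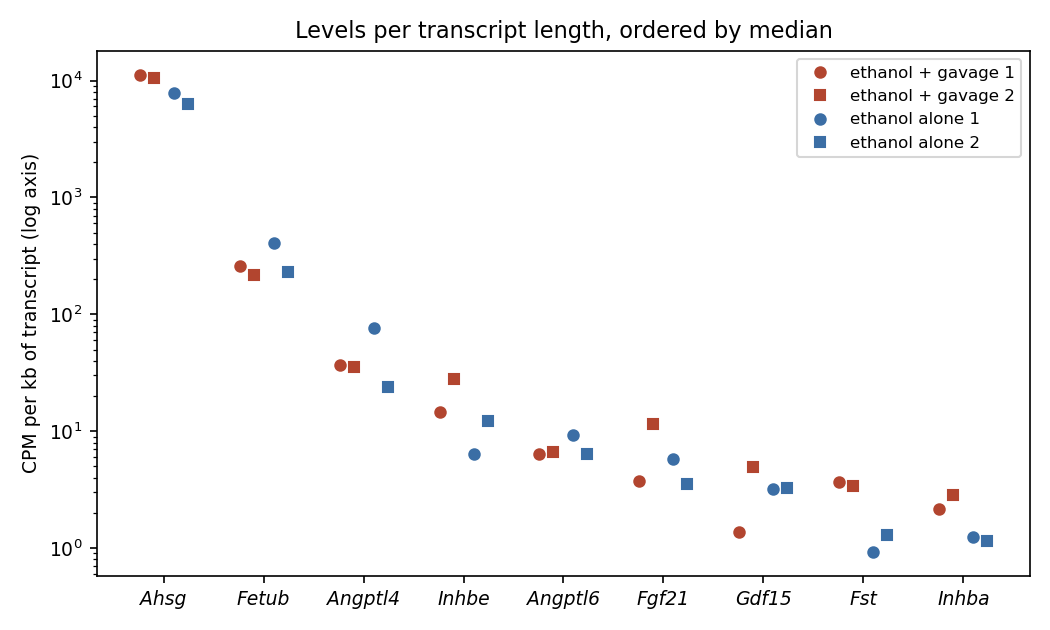
CPM per kb of the longest coding transcript (y axis, log scale) for each gene in the 4 libraries, ordered by the median; gavage in red, ethanol alone in blue. Ahsg lies between 6321 and 11235 and the other 8 genes at or below 409.

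Among 18 tested genes of other liver-secreted factors, 8 had a positive and 10 a negative fold change (median -0.31). That median was -0.11 without replicate 1 and -0.48 without replicate 2 of the gavage group, and -0.20 without replicate 2 of ethanol alone. At an unadjusted p under 0.05 there were 2 higher and 5 lower. Calls numbered 0 in the quasi-likelihood test, 1 lower in the likelihood-ratio test, and 1 higher and 4 lower in DESeq2. Selenop, the selenium carrier selenoprotein P and the most abundant, was at 6947 and 8965 CPM with gavage, against 9949 and 10085 CPM with ethanol alone. Enho, encoding the peptide adropin, had the smallest p, at 7.20 and 7.21 CPM with gavage and 36.1 and 15.8 CPM with ethanol alone (log2 fold change -1.85, SE 0.41, edgeR adjusted p = 0.152). The next genes were picked out after their values were seen. Fgl1, a fibrinogen-like hepatokine, was at 894 and 901 CPM with gavage and 511 and 309.5 CPM with ethanol alone. Hamp, the iron hormone hepcidin, was at 228 and 74.3 CPM with gavage and 936 and 353 CPM with ethanol alone. Igfbp1, a binding protein for insulin-like growth factors, was at 458 and 125 CPM with gavage and 195 and 25.5 CPM with ethanol alone, higher in both libraries numbered 1.

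Genes of the inputs known for these hormones gave counts in both directions. Of 13 PPARA targets, the receptor gene included, 5 had a positive and 8 a negative fold change (median -0.37). Of the negative ones, 3 had an unadjusted p under 0.05. The median was 0.018 without replicate 1 and -0.80 without replicate 2 of the gavage group, and -0.21 without replicate 2 of ethanol alone. Ehhadh, the peroxisomal bifunctional enzyme, had the smallest p, at 185 and 192 CPM with gavage and 427 and 399.7 CPM with ethanol alone (log2 fold change -1.13, SE 0.21, edgeR adjusted p = 0.133). Of 9 glucocorticoid receptor targets, the receptor gene included, 5 had a positive and 4 a negative fold change (median 0.07, or -0.06 to 0.01 with 1 library left out), and 2 of each sign had an unadjusted p under 0.05. The most abundant was Tat, tyrosine aminotransferase, at 613 and 1119.9 CPM with gavage and 2323 and 1804 CPM with ethanol alone. The smallest p was that of Mt2, a metallothionein, at 362 and 329.6 CPM with gavage and 14.8 and 32.7 CPM with ethanol alone. Of 8 FOXO1 and CREB fasting genes, 3 had a positive and 5 a negative fold change (median -0.16), and 1 positive and 2 negative ones had an unadjusted p under 0.05. The median was -0.37 without replicate 1 and 0.042 without replicate 2 of the gavage group, against 0.019 without replicate 1 and -0.26 without replicate 2 of ethanol alone. Pck1, the gluconeogenic enzyme with both the highest level and the smallest p, was at 1134 and 1569 CPM with gavage and 4188 and 2326 CPM with ethanol alone. In these 3 lists the quasi-likelihood test called 0 genes. DESeq2 called 3 lower PPARA targets, 2 higher and 2 lower glucocorticoid receptor targets and 1 lower fasting gene, and the likelihood-ratio test called 1 lower PPARA target and 2 higher and 1 lower glucocorticoid receptor targets.

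**Figure D5:**
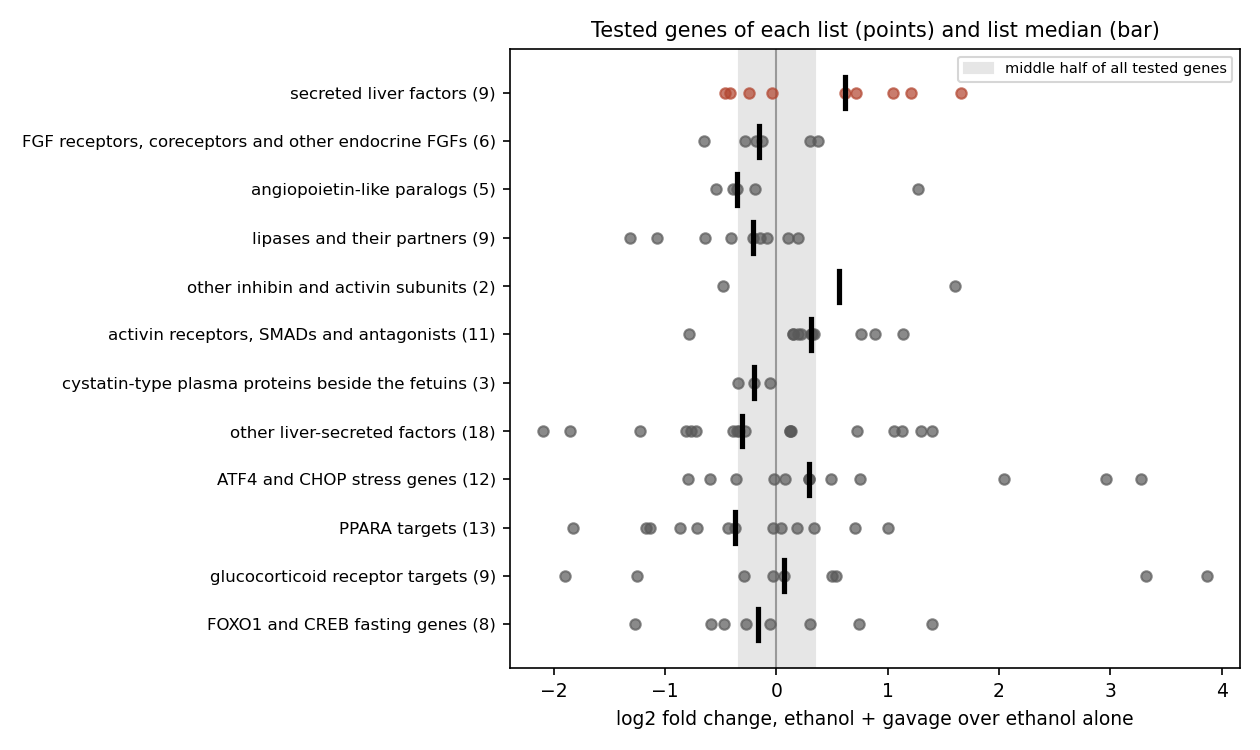
Log2 fold change of gavage over ethanol alone (x axis) for the tested genes of each list (points, number in brackets) and the list median (bar); the grey band is the interquartile range of all tested genes, -0.34 to 0.35. The 9 secreted factors (top) have a median of 0.62, which is -0.29 without replicate 2 of the gavage group, and the stress and glucocorticoid lists hold the points farthest to the right.

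Profiles nearest to the remaining genes were those of Stap1 (distance 0.0559) and Chsy3 (0.14) for Fst and of Aim1 (0.0402) and Rpl10a (0.0788) for Inhba. They were Sars, a seryl-tRNA synthetase, at 0.0426 and Taf9b at 0.0537 for Ahsg, and Tmc7 at 0.0383 and Rps19 at 0.0538 for Fetub. Zfand4 was at 0.138 from Angptl4, and Angptl6 was nearest to Ilkap at 0.0296 and Pdap1 at 0.0329.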

How the data were processed

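The authors deposited raw whole-number read counts for liver messenger RNA in 4 libraries, 1 row for each gene symbol. The column names end in the name of HTSeq. The submitters' processing notes also name bcl2fastq 2.20.0.422, STAR 2.6.0a, edgeR and GRCm38 without giving their roles, and the labels' protocols name both a TruSeq and a KAPA kit. Neither the annotation, the strand setting nor the handling of multi-mapped reads was given in the sources used here. Groups and replicate numbers came from the sample titles and treatment labels.

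Counts were tested in R 4.3.3 with edgeR 4.0.16: filterByExpr by group (minimum count 10, minimum total 15), trimmed mean of M-values factors (0.951 to 1.052), and the 2-sided quasi-likelihood F-test without covariates, adjusted by Benjamini-Hochberg over 13309 genes at a threshold of 0.05. The SE is the absolute log2 fold change over the square root of F, and 95% intervals use the t distribution with the fit's total degrees of freedom. edgeR estimated a common dispersion of 0.0966 (biological coefficient of variation 0.311). Within-group libraries differed beyond sampling noise (chi-square per degree of freedom 157 with gavage and 147 with ethanol alone). Alternatives were the replicate block, 3 other scalings, 2 other filters, DESeq2 1.42.0, limma-voom (limma 3.58.1), the likelihood-ratio test and each library left out. Scripts were tested on simulated data with a lower dispersion than these libraries have, which checks the code and not its power here. Positions and lengths came from GENCODE M21 and promoters from RefSeq. For each list the text names the most abundant tested gene and the one with the smallest p, and for each of the 9 genes the 2 nearest profiles (log2 of CPM plus 0.5, at least 1 CPM, no Gm or Rik models). A few genes that this rule names are not reported here. The 9 genes and all lists were chosen with earlier results of these data known.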

Additional observations from a re-analysis of the deposited data

How the results depend on the processing

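No gene was called with all 4 libraries in the quasi-likelihood test. With the replicate block, 410 genes and 2 of the 9 were called, Inhbe (log2 fold change 1.21, adjusted p = 0.0363) and Fst (1.67, adjusted p = 0.034). The labels do not say that equal numbers mark a shared mouse, batch or day. The deviations of libraries with equal numbers correlated at 0.492 over genes, which with 2 replicates a group is a single value, so whether the numbers pair the libraries is unknown. DESeq2 called 1177 genes and 3 of the 9 (Fst, Inhba and Ahsg), and edgeR's likelihood-ratio test 549 genes and 1 of the 9 (Fst). limma-voom, the other scalings and the other filters called 0 genes. With 1 library left out, 0 to 31 genes and 0 of the 9 were called, with 31 without replicate 2 of the gavage group and 12 without replicate 2 of ethanol alone. These fits assume that the lone library varies like the other group.

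Over all 13 alternatives, the fold changes of Fst, Inhbe, Inhba and Ahsg stayed positive. The sign turned for Gdf15 with library totals in place of scaling factors (0.019) and without replicate 1 of the gavage group (0.61, against -1.24 without its replicate 2), and for Fgf21 without replicate 2 of that group (-0.32, against 1.31 without replicate 1). Without replicate 1 of ethanol alone, the library with pancreas markers, it turned for Angptl4 (0.60), Angptl6 (0.019) and Fetub (0.044), whose lowest values, without replicate 2 of ethanol alone, were -1.13 for Angptl4, -0.55 for Angptl6 and -0.83 for Fetub. The cause was not tested. List medians moved by more than the spread between libraries in 18 of 143 recomputed values, and the stress list ran from -0.14 to 0.68. With 2 libraries a group and 67 to 331 counts, the intervals hold a 2-fold difference either way for Gdf15 and a 2-fold higher level for Fgf21.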
